A study of Mus musculus with 8 samples.

Results

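The triad is the junction of skeletal muscle at which a transverse tubule meets the terminal sacs of the sarcoplasmic reticulum, and 10 genes for its proteins were followed here in mouse gastrocnemius, a fast calf muscle. All probe sets of the array that the platform annotation assigns to exactly 1 of these genes were taken, which gave 26 of 45037 probe sets for 10 of the 18193 genes represented. Ryr1, Cacna1s, Cacng1, Stac3 and Casq1 stood beside Cacnb1, Jph1, Jph2, Trdn and Asph, and each of the 10 genes had at least 1 probe set above the signal filter described below. The genes were chosen by their place in the junction, with earlier results of these data already known.

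In this junction the voltage sensor, an L-type calcium channel of the tubule membrane whose pore subunit is encoded by Cacna1s, is coupled mechanically to the ryanodine receptor Ryr1 of the reticulum. Depolarisation of the tubule moves the sensor, the receptor opens and stored calcium reaches the myofilaments. Junctophilins hold both membranes together, triadin and junctin tie the receptor to the calcium buffer calsequestrin inside the reticulum, and the adaptor Stac3 is needed for the sensor to work with the receptor. Skeletal muscle of mice that lack Ryr1, Cacna1s or Stac3 does not contract on depolarisation.

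The samples were 4 control muscles, labelled wild type, and 4 GR_KO muscles, labelled as knockouts of the glucocorticoid receptor, the transcription factor that steroid stress hormones switch on, encoded by Nr3c1. The design text names the knockout animals GR(i)skm-/-, all 8 samples share the strain background C57/Bl6J, and the sources used here do not give age, sex, the driver and timing of the deletion or any hormone treatment. Total RNA of whole muscle was labelled with biotin and hybridised to 1 Affymetrix array per sample, and values are MAS5 signals on a linear scale. The comparison asks whether triad transcripts are at another level in muscle whose receptor gene is disrupted.

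The targeted gene, Nr3c1, had signals of 307 to 377 in controls and 76 to 134 in GR_KO muscle at probe set 1460303_at (limma adjusted p = 0.0240). Probe set 1457635_s_at passed too (limma adjusted p = 0.0354). Its brightest, 1421867_at, did not pass and had overlapping groups, 213 to 513 against 105 to 222 (limma adjusted p = 0.963). Nor did 1453860_s_at and 1421866_at pass, and the log2 fold changes of all tested Nr3c1 probe sets ran from -1.96 to -0.32. All 8 skeletal muscle markers, among them Acta1, Ckm and Myh4, were above the filter on average, while of 7 cardiac markers Myh6, Nppa, Tnni3, Ryr2 and Myl7 lay below it and Tnnt2 and Myl4 above. Control replicate 4 stood apart: its summed signal over the 8 muscle markers was 197195 against 87020 to 99136 on the other controls, its slow-fibre markers summed to 7518 against 12811 to 25166, and the ratio of 3′ to 5′ signal at Gapdh was 1.20 against 0.804 to 0.873. The hybridisation spike-in controls of this array averaged 10.79 on the log2 scale. They averaged 8.95 to 9.28 on the other controls and 9.03 to 9.76 on the GR_KO arrays. GR_KO replicate 1 had the lowest muscle marker sum of the 8 arrays, 80024, against 96427 to 127003 on the other GR_KO arrays.

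No triad transcript passed the test between GR_KO and control muscle. Of the 26 probe sets, 21 had a mean log2 signal over the 8 arrays above the median taken across the array, equal to a signal of 19.4, and were tested together with all others that passed. In limma with Benjamini-Hochberg adjustment 0 of the 21 passed an adjusted p of 0.05, with adjusted p-values from 0.963 to 0.996, and 0 had an unadjusted p below 0.05. Over all 22518 probe sets tested, 0.0222% passed the adjusted and 3.75% the unadjusted threshold. The groups overlapped for each of the 21 probe sets, where 2.19% of all tested probe sets had groups that did not overlap. In whole muscle, fewer cells of a type and less RNA per cell cannot be told apart.

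**Figure D1:**
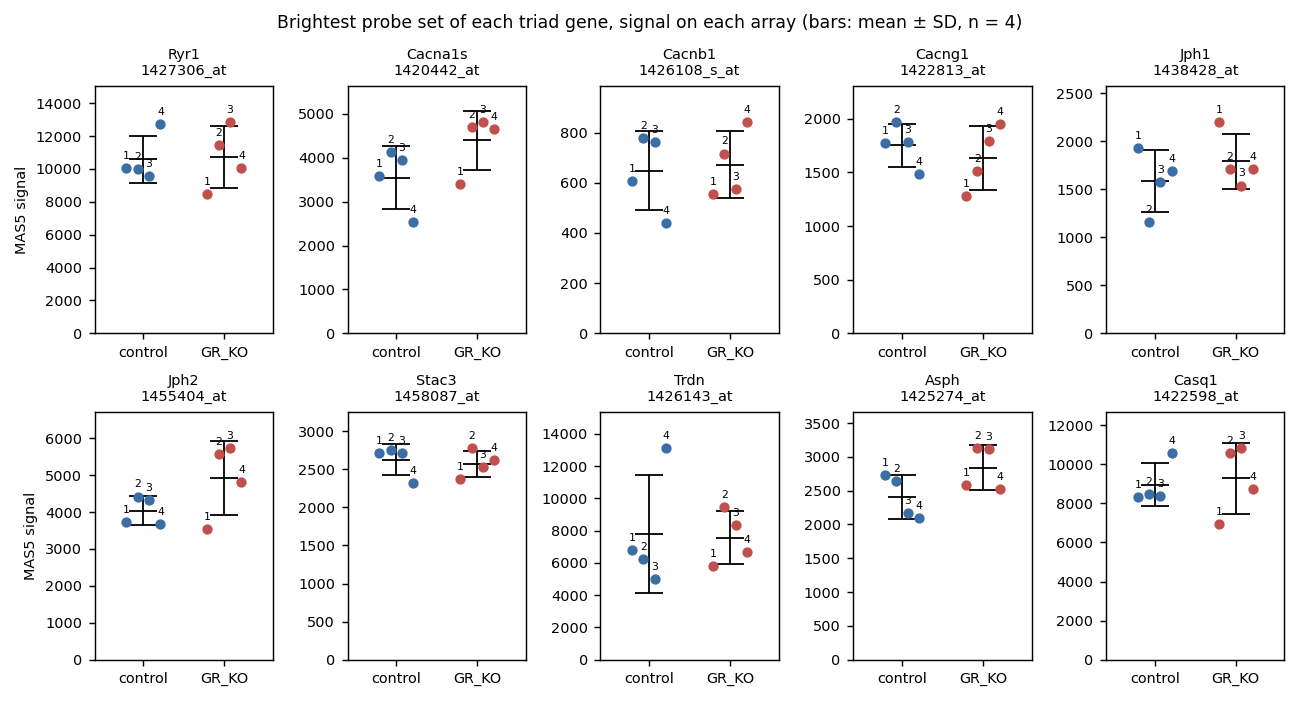
MAS5 signal (linear axis from 0) of the brightest probe set of each triad gene on the 4 control and 4 GR_KO arrays; points are arrays, digits are replicate numbers and bars show mean ± SD. The groups overlap for all 10 genes, and control replicate 4 is the highest array for Trdn, at 13117, and the lowest for Cacna1s, at 2530.

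The sizes of the differences were small and their directions mixed. The log2 fold changes of the 21 tested probe sets, GR_KO minus control, ran from -0.64 to 0.40 with a median of 0.04, beside a median of -0.01 over all probe sets tested. Of them 14 lay above 0 and 7 below, where 47.8% of all tested probe sets lay above 0. Taking the brightest probe set of each gene, 8 of 10 lay above 0 with a median of 0.05, where 52.2% of the brightest probe sets of all genes lay above 0. The 95% interval of the fold change stayed within 2-fold in either direction for all 10 brightest probe sets and within 1.5-fold for 7 of them, all but Cacna1s, Jph2 and Trdn. Over all 21 tested probe sets the interval stayed within 2-fold for 18 and within 1.5-fold for 10. The missed threshold does not show that the levels were equal.

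**Figure D2:**
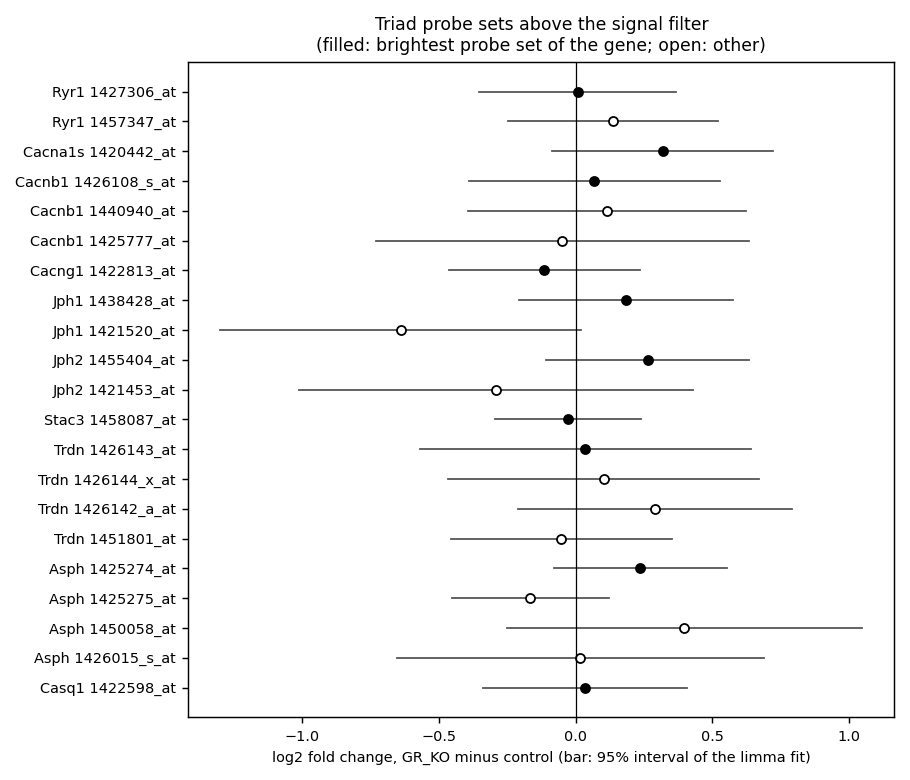
Log2 fold change (x axis, GR_KO minus control) of the 21 tested triad probe sets with the 95% interval of the limma fit; filled points are the brightest probe set of each gene. Every interval includes 0, and the values furthest from 0 are -0.64 at a Jph1 probe set and 0.40 at an Asph probe set.

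Promoter windows show which letters lie before the starts of these genes. A RefSeq table of the build GRCm38.p6 held 7 windows for 5 of the 10 genes (Cacna1s, Casq1, Jph2, Ryr1 and Cacnb1), and the 250 bases before each start were searched on both strands. The half-site TGTTCT, of which the glucocorticoid receptor binds an inverted pair, was in 0 of the 7 windows and in 16.1% of all 32851 windows of the table. The E-box CAGCTG, a sequence bound by muscle factors of the MyoD family, was in windows of 3 of the 5 genes, Cacna1s, Casq1 and Jph2, and in 13.0% of all windows. The 2 windows of Jph2 overlap and hold the same E-box, so the 4 windows of 7 with a match have 3 separate sites. A match or its lack is a description of these letters alone. The windows of the voltage sensor and of the calcium buffer are printed as examples from both membranes of the junction, with the E-box in capitals. That of Cacna1s lies at chr1:136052561-136052810 on the plus strand and that of Casq1 at chr1:172219896-172220145 on the minus strand, both printed 5′ to 3′ along the gene.
Cacna1s: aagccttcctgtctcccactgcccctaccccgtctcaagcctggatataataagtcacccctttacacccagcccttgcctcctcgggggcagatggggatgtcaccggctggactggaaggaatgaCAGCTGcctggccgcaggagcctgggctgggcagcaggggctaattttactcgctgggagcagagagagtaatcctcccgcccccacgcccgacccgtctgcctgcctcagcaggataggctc
Casq1: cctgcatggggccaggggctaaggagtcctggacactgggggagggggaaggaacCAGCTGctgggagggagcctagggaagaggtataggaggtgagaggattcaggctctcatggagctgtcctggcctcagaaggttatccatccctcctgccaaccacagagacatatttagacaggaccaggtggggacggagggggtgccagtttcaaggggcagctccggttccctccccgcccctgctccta

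Of the 3 channel subunits followed, Cacna1s, Cacnb1 and Cacng1, the pore subunit Cacna1s had the largest log2 fold change in size. Cacna1s (1420442_at) had signals of 3582, 4143, 3946 and 2530 on control replicates 1 to 4 and of 3395, 4700, 4824 and 4662 on GR_KO replicates 1 to 4. Thus 3 GR_KO arrays lay above all 4 controls, while GR_KO replicate 1 lay among them and control replicate 4 lay below every other array. The log2 fold change was 0.32 ± 0.18 (SE; limma adjusted p = 0.963), a 1.25-fold difference with a 95% interval from 0.942 to 1.65. Without control replicate 4 it was 0.16, and without GR_KO replicate 1 it was 0.44, with groups that then did not overlap and an unadjusted p of 0.0293.

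The intracellular beta subunit, Cacnb1, which carries the sensor to the tubule membrane, had values on both sides of 0. Its brightest probe set, 1426108_s_at, had signals of 608, 780, 764 and 441 in controls and of 554, 717, 577 and 844 in GR_KO muscle. Control replicate 4 was lowest and GR_KO replicate 4 highest, and the remaining arrays mixed (log2 fold change 0.07 ± 0.21 SE, limma adjusted p = 0.977). Probe sets 1440940_at and 1425777_at had log2 fold changes of 0.12 and -0.05. Control replicate 4 was lowest at all 3, and without it the values were -0.10, -0.10 and -0.27. The remaining probe set, 1451834_at, was dim, with signals of 2 to 20.

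The gamma subunit, Cacng1, a membrane protein of the same channel, lay slightly lower on average in GR_KO muscle. Its signals were 1777, 1973, 1779 and 1489 in controls and 1282, 1511, 1790 and 1951 in GR_KO muscle. Both groups covered nearly the same span, with 1 GR_KO array below all controls, and the log2 fold change was -0.11 ± 0.16 (SE; limma adjusted p = 0.963). Stac3 had the narrowest spread of all triad probe sets: 2710, 2761, 2720 and 2320 in controls against 2372, 2782, 2534 and 2618 in GR_KO muscle. Its highest array was 1.20-fold its lowest, and its 95% interval was the narrowest of the 10 brightest probe sets, from 0.815- to 1.18-fold (log2 fold change -0.03 ± 0.12 SE, limma adjusted p = 0.983).

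On the reticulum side, the mean levels of the calcium release channel Ryr1 differed between the groups by less than their spread. Probe set 1427306_at had signals of 10079, 9994, 9588 and 12718 in controls and of 8469, 11438, 12875 and 10075 in GR_KO muscle, or 10595 ± 1432 and 10714 ± 1883 (mean ± SD, n = 4). The lowest and the highest array were both GR_KO, and the difference was 1.01-fold with a 95% interval from 0.783 to 1.29 (limma adjusted p = 0.996). Its other probe set, 1457347_at, had signals of 9300, 9736, 8649 and 8158 in controls and of 7445, 12282, 11578 and 8834 in GR_KO muscle. Here too the GR_KO arrays spanned the controls on both sides (log2 fold change 0.14 ± 0.17 SE, limma adjusted p = 0.963). Control replicate 4 was the highest control at the first Ryr1 probe set and the lowest at the second.

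Calsequestrin, Casq1, the buffer that holds calcium inside the terminal sacs, also differed by less than its spread. Its probe set 1422598_at read 8337, 8489, 8402 and 10606 in controls and 6960, 10565, 10840 and 8744 in GR_KO muscle. Control replicates 1 to 3 lay close together, control replicate 4 and 3 GR_KO arrays lay above them, and GR_KO replicate 1 lay below. The log2 fold change was 0.04 ± 0.17 (SE; limma adjusted p = 0.983), and the fold interval ran from 0.792 to 1.33.

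The spread of Casq1 and Ryr1 between arrays depended on the normalization. After quantile normalization, which gives all arrays the same distribution, Casq1 signals lay between 8650 and 9865, the highest 1.14-fold the lowest, against 1.56-fold as deposited. The pooled within-group SD on the log2 scale went from 0.241 to 0.0640 for Casq1 and from 0.225 to 0.0963 for Ryr1 1427306_at. For Ryr1 1457347_at it went from 0.252 to 0.199. Trdn 1426143_at kept its high value on control replicate 4, 9947 against 5439 to 7186 on the other controls, and Cacna1s kept its low one, 2728 against 3609 to 4190. The log2 fold change of Casq1 turned to -0.01, and no triad probe set passed the limma threshold after quantile normalization.

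**Figure D3:**
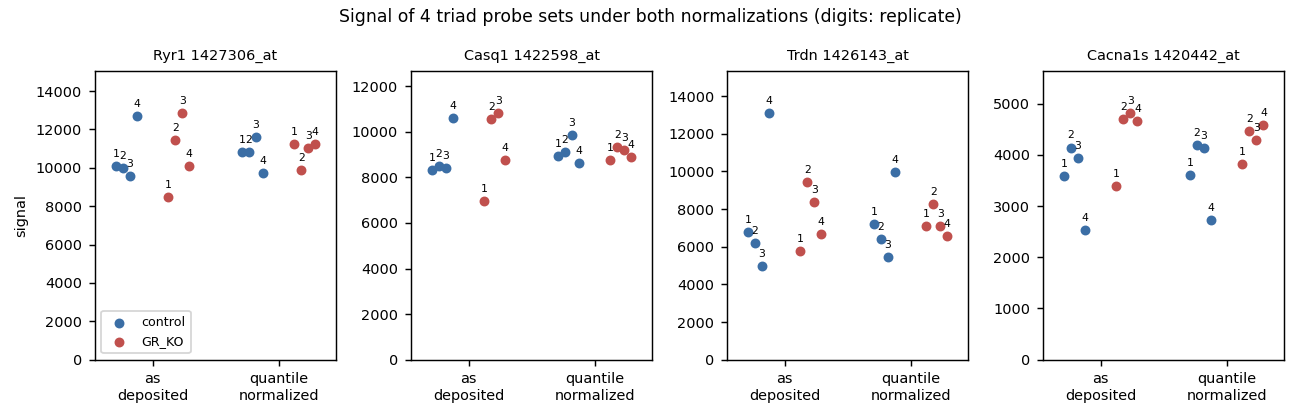
Signal (linear axis from 0) of 4 triad probe sets on each array as deposited and after quantile normalization; points are arrays and digits are replicate numbers. The 8 Casq1 and Ryr1 signals draw together after normalization, while Trdn stays high and Cacna1s low on control replicate 4.

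Triadin, Trdn, which anchors calsequestrin to the ryanodine receptor, had the widest spread among the bright members. Probe set 1426143_at had signals of 6784, 6206, 4998 and 13117 in controls and of 5786, 9457, 8350 and 6676 in GR_KO muscle. Control replicate 4 was the highest array and control replicate 3 the lowest, so the whole GR_KO group lay inside the control range (log2 fold change 0.04 ± 0.28 SE, limma adjusted p = 0.993). Probe set 1426144_x_at, designed on the same transcript record, ran in parallel, from 4617 on control replicate 3 to 11427 on control replicate 4. Probe set 1426142_a_at, also from that record, had its lowest signal, 1561, on control replicate 3 but only 3188 on control replicate 4, and its log2 fold change was 0.29 ± 0.23. That value was 0.05 without control replicate 3, and the value of 1426143_at was 0.32 without control replicate 4 and -0.14 without control replicate 3. Fast-fibre markers summed to 236237 on control replicate 4 and to between 102393 and 116075 on the other controls, and their part in the Trdn values was not tested.

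The other Trdn probe sets were much dimmer. Probe set 1451801_at lay between 90 and 136 on all arrays with a log2 fold change of -0.05 ± 0.18, and 1451940_x_at and 1426134_at, with signals of 0 to 34 and 1 to 15, were below the filter. Triadin is made in several splice forms, and the position of each probe set among them was not analysed here.

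Asph encodes junctin, the short partner of triadin, and by alternative splicing also aspartate beta-hydroxylase and junctate. Its 2 bright probe sets, designed on 1 transcript record, leaned to opposite sides. Probe set 1425274_at had signals of 2729, 2650, 2169 and 2096 in controls and of 2580, 3132, 3116 and 2521 in GR_KO muscle, with both lowest values in controls and both highest in GR_KO (log2 fold change 0.24 ± 0.14 SE, limma adjusted p = 0.963). Probe set 1425275_at had signals of 2250, 2033, 2108 and 2308 in controls and of 2077, 1986, 2110 and 1615 in GR_KO muscle, with its lowest value on GR_KO replicate 4 (-0.17 ± 0.13, limma adjusted p = 0.963). The difference between both log2 fold changes was -0.40, with an exact permutation p of 0.0571, two-sided, and 0.314 after adjustment over the 11 such pairs. The smallest p that 4 against 4 arrays can give is 0.0286. Of the dimmer probe sets of Asph, 1450058_at had the highest log2 fold change of the whole set, 0.40 ± 0.30, which was 0.08 without control replicate 4, whose signal of 23 stood against 54 to 56 on the other controls. Probe set 1426015_s_at had 0.02 ± 0.31, and 1420959_at and 1436455_at were below the filter with signals of 1 to 36 and 5 to 16.

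The junctophilins, which bridge the tubule and the reticulum, had bright probe sets above 0 and dimmer ones below. Jph1 (1438428_at) had signals of 1934, 1158, 1572 and 1694 in controls and of 2205, 1715, 1540 and 1711 in GR_KO muscle. The groups overlapped apart from control replicate 2 at the bottom and GR_KO replicate 1 at the top (log2 fold change 0.19 ± 0.18 SE, limma adjusted p = 0.963). Jph1 probe set 1421520_at had signals of 112, 101, 220 and 189 in controls and of 123, 83, 64 and 122 in GR_KO muscle. Its log2 fold change, -0.64 ± 0.30, was furthest from 0 and had the smallest p among the triad probe sets (unadjusted p = 0.0560, limma adjusted p = 0.963), and control replicates 3 and 4 alone lay above all GR_KO arrays. Without control replicate 3 it was -0.45, and without control replicate 2 it was -0.82. The difference between both Jph1 probe sets was -0.83, with an exact permutation p of 0.0571 (adjusted p = 0.314).

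Jph2, the junctophilin that muscle shares with the heart, followed the same arrangement. Its bright probe set 1455404_at had signals of 3728, 4422, 4331 and 3670 in controls and of 3539, 5573, 5738 and 4809 in GR_KO muscle. As for Cacna1s, 3 GR_KO arrays lay above all controls, but here GR_KO replicate 1 lay below every control, and the log2 fold change was 0.26 ± 0.17 (SE; limma adjusted p = 0.963). Without GR_KO replicate 1 the groups did not overlap and the value was 0.41, with an unadjusted p of 0.0101 and a limma adjusted p of 0.571. In that fit without GR_KO replicate 1, 8.52% of all probe sets tested had an unadjusted p below 0.05 and 9.97% had groups that did not overlap, against 3 and 2 of the 21 triad probe sets. Jph2 probe set 1421453_at had signals of 220, 231, 563 and 202 in controls and of 184, 231, 175 and 346 in GR_KO muscle. Only control replicate 3 and GR_KO replicate 4 stood above the others, and its log2 fold change of -0.29 ± 0.33 was 0.05 without control replicate 3.

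Over the 11 comparisons of a dimmer tested probe set with the brightest of its gene, in 6 genes, the smallest adjusted p of the exact permutation test was 0.314. With 4 against 4 arrays 1 pair at the smallest possible p would also adjust to 0.314, and 7 of the 11 pairs would have to be there to pass 0.05, so the test could hardly call a pair. The probe sets of Ryr1, Cacnb1 and Trdn differed from the brightest by -0.12 to 0.26 in log2 fold change, those of Asph by -0.40 to 0.16, and those of Jph1 and Jph2 by -0.83 and -0.56.

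Seen by array, the triad genes did not move as 1 block. The median deviation of the 21 probe sets from their means was lowest on GR_KO replicate 1, at -0.20, and on control replicate 4, at -0.16, and highest on GR_KO replicates 2 and 3, at 0.14 and 0.16. Control replicate 4 held the lowest signal for 7 of the 21 probe sets and the highest for 3, GR_KO replicate 1 the lowest for 5 and the highest for 3. On control replicate 4 the bright Trdn probe sets, Casq1 and Ryr1 1427306_at were above their means, while Cacna1s and the 3 Cacnb1 probe sets were below. The median within-group SD of the triad probe sets was 0.283 on the log2 scale, beside 0.329 over all tested probe sets. These values were not matched for signal: the brightest probe set of each triad gene lay at percentile 94.8 to 99.9 of mean signal.

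**Figure D4:**
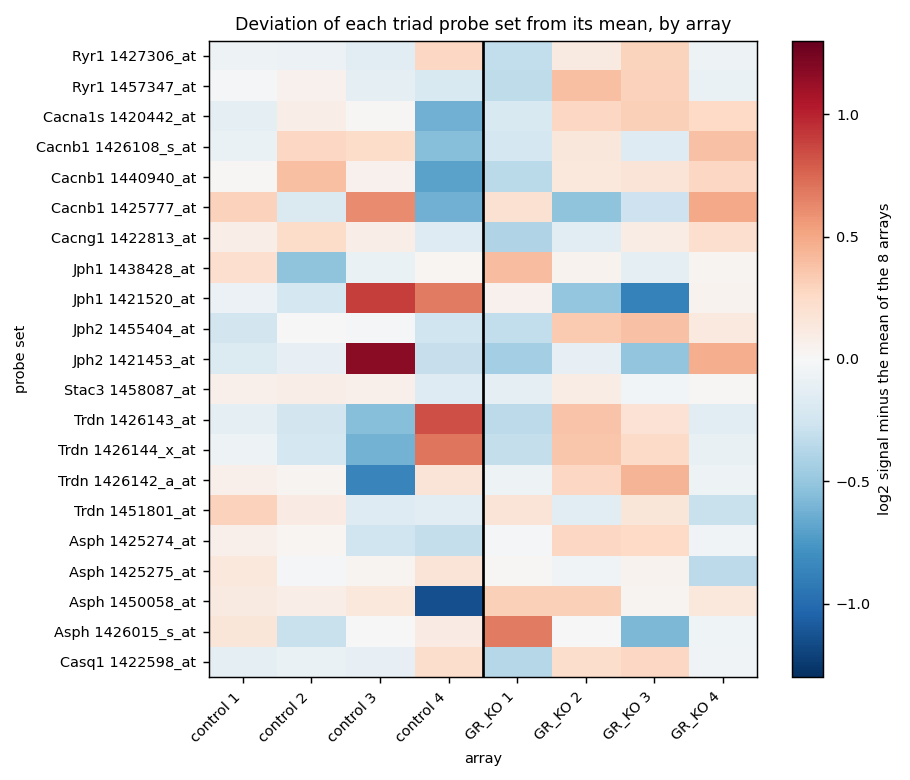
Deviation of each tested triad probe set (rows) on each array (columns) from its mean over the 8 arrays, on the log2 scale; red is above and blue below. Control replicate 4 shows both colours, with Trdn above and Cacna1s and Cacnb1 below, and GR_KO replicate 1 is mostly below, with a median of -0.20.

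Further genes of calcium release and reticulum calcium handling were also without a call. Of 35 listed genes, 30 had a single-gene probe set and 22 were above the filter. By their brightest probe sets 0 of the 22 passed the limma threshold and 0 had an unadjusted p below 0.05, where 0.0271% and 4.06% of all genes did in the same fit. Of the 22, 15 had a log2 fold change above 0, with a median of 0.07, beside 0.01 over the brightest probe sets of all genes.

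The 4 partners with the smallest p were on both sides of 0. Stac2, a relative of Stac3, had signals of 18 to 29 in controls and 27 to 35 in GR_KO muscle (log2 fold change 0.41 ± 0.26 SE), close to the filter. Sypl2, a membrane protein of the triad also called mitsugumin-29, had 1273 to 2534 in controls and 1760 to 2673 in GR_KO muscle (0.31 ± 0.22). Cacna2d1, the alpha-2/delta subunit of the voltage sensor, had 1332 to 2566 in controls and 1130 to 2154 in GR_KO muscle (-0.35 ± 0.25), and Tmem38b, a cation channel of the reticulum, had 162 to 323 in GR_KO against 182 to 380 in control muscle (-0.38 ± 0.28). All 4 had overlapping groups and a limma adjusted p of 0.963. The other tested probe sets of Cacna2d1 had log2 fold changes from -0.33 to 0.32, and those of Tmem38b from -0.63 to -0.40.

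**Figure D5:**
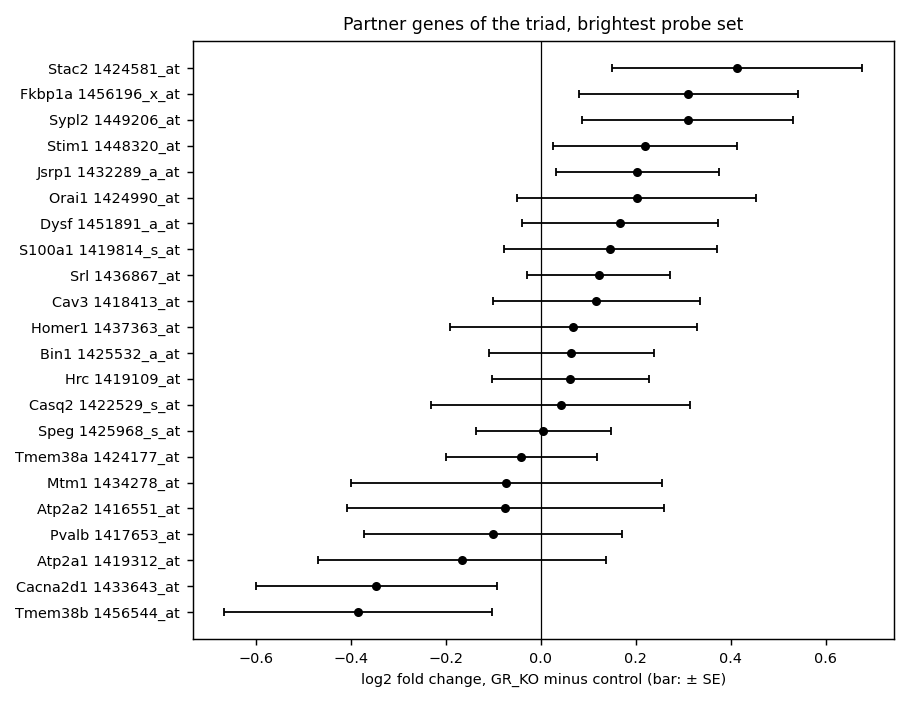
Log2 fold change (x axis, GR_KO minus control, ± SE) of the 22 tested partner genes at their brightest probe set. Values run from -0.38 for Tmem38b to 0.41 for Stac2, and no gene passed the limma threshold.

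Mrln, the micropeptide that restrains the reticulum calcium pump, is given beside the triad because it was already known to differ on these arrays. Its 4 GR_KO signals, 525 to 983, all lay below its 4 control signals, 1556 to 1919 (1430036_at, log2 fold change -1.27 ± 0.19 SE). Its limma adjusted p was 0.108 over all probe sets and 0.0476 when each gene was tested by its brightest probe set. The calcium pump Atp2a1 had 10367 to 27942 in controls and 9799 to 16369 in GR_KO muscle, with control replicate 4 at the top (log2 fold change -0.17 ± 0.30, limma adjusted p = 0.968).

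Markers of other cells of the muscle were set beside these values. Endothelial markers summed to 2665 to 3324 in controls and 3455 to 5028 in GR_KO muscle, with log2 fold changes above 0 for 7 of 8, and fibroblast and matrix markers to 7123 to 14212 and 12550 to 18068, with 7 of 9 above 0. No marker of either list passed the limma threshold. At an unadjusted p below 0.05 were 4 of the 8 endothelial markers (Kdr, Cldn5, Eng and Sox18) and 2 of the 9 fibroblast and matrix markers (Col1a2 and Col3a1), all higher in GR_KO muscle, where 4.06% of all genes were. The groups did not overlap for the 2 endothelial markers Cldn5 and Sox18, where 2.58% of all genes had such groups. Control replicate 4 had the lowest sum of both lists.

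Fibre type and nerve markers had overlapping sums and no marker at an unadjusted p below 0.05. Slow-fibre markers summed to 7518 to 25166 in controls and 15454 to 18556 in GR_KO muscle, with log2 fold changes above 0 for 8 of 9. Fast-fibre markers summed to 102393 to 236237 and 94554 to 151789, with 9 of 9 below 0. The 8 general muscle markers were all below 0 too, but Myh4, Myh1, Tnnt3 and Actn3 are in both lists. Of the brightest probe sets of all genes 52.2% lay above 0. Control replicate 4 had the highest fast-fibre sum, 236237 against 102393 to 116075 on the other controls. It also had the lowest slow-fibre sum, 7518 against 12811 to 25166. The directions of these markers without control replicate 4 were not examined. Schwann cell and nerve markers summed to 1007 to 3782 and 1343 to 4019, with 4 of 4 tested above 0. Cardiac markers, by contrast, had sums that did not overlap, 248 to 336 in controls and 362 to 449 in GR_KO muscle, of which Myl4 made up most. Only 2 of these 7 markers were above the filter. Myl4 itself had signals of 164 to 246 in controls and 274 to 355 in GR_KO muscle, again without overlap, where 2.58% of all genes had such groups. Its log2 fold change was 0.53 ± 0.16 (SE), which passed the unadjusted but not the adjusted limma threshold, where 4.06% of all genes passed the unadjusted one. Tnnt2, the other cardiac marker tested, had overlapping groups and a log2 fold change of -0.34 ± 0.29. The part of these markers in the triad values was not tested.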

How the data were processed

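The authors deposited linear signal intensities as whole numbers for 45101 probe sets on 8 arrays. MAS5 is the tool named, per the submitters' processing notes, and its version and scaling target were not stated there. The trimmed mean of each array lay between 99.960 and 99.964. Arrays carry no counts, and their number limits the precision.

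From them log2 signals were computed with no pseudocount, a value of 0 being set to the array's smallest positive value. Control probe sets (64) were left out. Symbols came from the platform annotation, updated by gene identifier (34741 of 34945 single-gene probe sets matched RefSeq). Probe sets with a mean log2 signal above the median of all (22518) entered 1 two-sided test with limma 3.58.1 (R 4.3.3; linear fit and eBayes with trend, Benjamini-Hochberg, threshold 0.05). Figures used Python 3.11.15. The steps were tested on simulated data. There the test recovered 4.7% of log2 changes of 0.58 in size, 29.7% of those of 1 and 83.7% of those of 2. Most changes of 0.58, and also most of those of 1, which is 2-fold, would thus be missed.

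The sample labels number the replicates without stating a pairing, and the main test used none. Same-numbered arrays deviated with correlations of -0.123, 0.114, 0.0927 and -0.376, which cannot show whether the samples were paired. Whether the 4 samples of a group are separate animals is not stated, so the p-values reflect spread among these samples, possibly technical. No arrays were identical. The members, lists and tests were chosen with earlier results of these data known. All 26 triad probe sets are named, with every signal for the brightest; of the partners, those past the threshold and the 4 with the smallest p are named, and Nr3c1 and Mrln were added as references. Atp2a1 and the single marker genes named by their p or overlap were chosen after their values were seen. Alternatives covered normalization, pseudocounts of 2 and 6, filters, prior, array weights, replicate block, spike-in covariate, unit of test, threshold and leaving out each array.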

Additional observations from a re-analysis of the deposited data

Results flagged for a closer look

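For 6 triad probe sets, 1 of the 4 arrays of a group lay far from the other 3, judged by the gap to its nearest neighbour as a share of the group's range. This was tested in 42 groups of 4, and chance flags about 1 group in 20. In GR_KO muscle the Cacna1s signal of 3395 on replicate 1 stood below 4662 to 4824. In control muscle the Jph2 1421453_at signal of 563 on replicate 3 stood above 202 to 231, and the Trdn 1426142_a_at signal of 1561 on replicate 3 stood below 2904 to 3188. Control replicate 4 accounted for the other 3: Casq1 at 10606 above 8337 to 8489, Asph 1450058_at at 23 below 54 to 56, and Stac3 at 2320 below 2710 to 2761.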

How the results depend on the processing

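The count of 0 triad probe sets past the limma threshold, and of 0 partner genes, held under every alternative run. Under several alternatives, named below, 0 of all probe sets passed, so the triad count there says nothing about stability. The median log2 fold change of the triad probe sets ranged from 0.01 to 0.16 and stayed above 0. Single probe sets changed sign under some alternatives: 2 to 5 of 21 with single arrays left out, 2 under quantile normalization or array weights and 1 under median centring or the spike-in covariate. The count at an unadjusted p below 0.05, 0 as reported, was 2 of 21 with array weights, where 6.53% of all probe sets tested were. With single arrays left out it was 0 to 3 of 21, where 2.1% to 8.52% of all probe sets tested were. It was 3 without GR_KO replicate 1 (Cacna1s, Jph1 1421520_at and Jph2 1455404_at). Groups that did not overlap numbered 0 to 2 of 21 with single arrays left out, beside 3.37% to 9.97% of all probe sets tested. The exact test between probe sets of 1 gene could hardly call a pair with all 8 arrays, so its calls say nothing about stability. Over all probe sets 5 passed, all lower in GR_KO; this count was 0 with no filter and 0 with the replicate block, 1 without the eBayes trend, 10 with array weights, and 0 to 5 with single arrays left out, 0 without control replicates 1 or 3 or without GR_KO replicates 2, 3 or 4. The replicate block called 0 triad probe sets. The cause of these moves was not tested. The number of arrays limits the precision.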
